A study of Danio rerio with 6 samples.

Results

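The genes described here are hdac1 (ENSDARG00000015427) and hdac3 (ENSDARG00000037514), which encode class I histone deacetylases. They were chosen by their Ensembl identifiers and not by their values, but with earlier results of these data known, as were the gene lists used below. They are 2 of the 32520 genes in the count table. Tubules were dissected from zebrafish larvae of the *Tg(PT:EGFP)* line, a reporter in which the proximal tubule of the larval kidney, the pronephros, is green. All larvae carried the reporter and all were injected with gentamicin, an antibiotic that injures the tubule, at 3 days post-fertilization (dpf). At 2 days after injection the gent-AKI+DMSO larvae received 1% DMSO and the gent-AKI+UPHD25 larvae received 1 µM UPHD25 in 1% DMSO, both for 24 h, so the tissue was collected at 6 dpf. The GFP-positive pronephros was dissected by hand from 100 larvae for each library, with 3 libraries per group. No uninjured larvae were in the comparison, so it addresses the drug within injury and not the injury itself.

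Histone deacetylases remove acetyl groups from lysines of histone tails, and class I comprises nuclear zinc-dependent enzymes that act mainly inside corepressor complexes. From work mostly in mammals, Hdac1 acts in the NuRD, SIN3, CoREST and MiDAC complexes, and Hdac3 in the NCoR complex, which unliganded nuclear receptors such as the retinoic acid receptors recruit. In zebrafish, hdac1 is the counterpart of both mammalian genes HDAC1 and HDAC2, and hdac3 is needed for the formation of the larval liver. UPHD25 is a prodrug of PTBA, 4-(phenylthio)butanoic acid, an inhibitor of histone deacetylases. An inhibitor acts on the protein, whereas the libraries measure polyadenylated mRNA. The comparison therefore asks whether the transcripts of the enzymes, or of their partner proteins, differed after the drug, and it measures neither protein nor enzyme activity.

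The 6 libraries held from 10781071 to 30750026 counted reads, and 17497 genes passed edgeR's filter on low counts. Both hdac1 and hdac3 passed it. Values are given as CPM, the counts of a gene scaled to a common library total, with TMM normalization, which rescales library totals on the assumption that most genes do not differ. CPM is not corrected for transcript length, so it ranks libraries for a gene but does not rank genes. Groups were compared with edgeR's two-sided quasi-likelihood test, and p-values were adjusted by the Benjamini-Hochberg method over all genes tested, with a threshold of 0.05. By this test 0 genes of the whole table, or 0%, passed the threshold, and the smallest adjusted p was 0.207. An unadjusted p under 0.05 was found for 2186 genes, or 12.5%, with 1590 genes (9.09%) higher and 596 genes (3.41%) lower after UPHD25. DESeq2's Wald test, run as an alternative, called 636 of the 18578 genes to which it gave an adjusted p.

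The tissue was checked against marker genes. Of the proximal tubule genes, lrp2a and cubn (endocytic receptors) and slc20a1 and cdh17 were counted in the libraries. In that list 12 of 18 identifiers passed the filter on low counts. The list summed to 1046 to 1604 CPM with DMSO against 1153 to 1603 CPM with UPHD25. Skeletal muscle markers summed to more than the tubule list, at 23377 to 26918 CPM in gent-AKI+DMSO and 11184 to 20589 CPM in gent-AKI+UPHD25. So did liver markers, at 9025 to 14208 against 4214 to 9934 CPM. Exocrine pancreas markers also did, at 10444 to 16287 against 3329 to 9533 CPM. The lists hold different genes and CPM is not corrected for transcript length, so these sums do not rank amounts of tissue. Leukocyte markers summed to 84.3 to 120 CPM against 32.6 to 63.7 CPM. Epidermis markers summed to 640 to 900 against 688 to 1109 CPM, and endothelium markers to 527 to 552 against 432 to 551 CPM. The sums were 273 to 382 against 258 to 450 CPM for podocytes and 128 to 152 against 85.0 to 233 CPM for distal tubule and duct. Erythroid markers summed to 172 to 266 against 71.3 to 195 CPM. The muscle, pancreas and leukocyte ranges did not overlap between the groups. Of single genes tested, 7.46% had all UPHD25 libraries below all DMSO libraries. By an unadjusted p under 0.05, 2 of 9 muscle genes and 0 of 10 liver genes tested were lower after UPHD25. So were 5 of 9 pancreas genes and 3 of 4 leukocyte genes, where 3.41% of all genes tested were. The remaining leukocyte gene was higher, as 9.09% of all genes were, and 0 in these lists passed the adjusted threshold. In bulk tissue fewer cells of a type and less RNA per cell cannot be told apart. Some genes that define a tissue had no counts or almost none, as hnf4a did in the tubule list (0 to 1 count), lyz in the leukocyte list, alas2 in the erythroid list and pvalb2 in the muscle list (0 in every library).

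In edgeR's model the log2 fold change of hdac1 between the groups was smaller than its SE. That SE comes from a model fitted over all genes tested and not from the spread of hdac1 alone. The gent-AKI+DMSO libraries held 6194, 1851 and 2429 reads of hdac1, and the gent-AKI+UPHD25 libraries held 4863, 2294 and 3085, in the order of replicates 1 to 3. As TMM-normalized CPM these were 207.0, 173 and 202 in gent-AKI+DMSO and 215, 221 and 207.1 in gent-AKI+UPHD25. Replicate 2 of gent-AKI+DMSO was the low library of the set, and the other libraries lay between 202 and 221 CPM. The group means were 194 ± 18.3 CPM in gent-AKI+DMSO and 214 ± 6.80 CPM in gent-AKI+UPHD25 (SD, n = 3). The log2 fold change was 0.14 (SE 0.17, 95% interval -0.25 to 0.54), a fold of 1.104, and the adjusted p of edgeR's quasi-likelihood test was 0.825. On the fold scale the interval ran from 0.841 to 1.45, so a doubling or a halving of the hdac1 transcript lay outside it and a change of up to 1.45-fold did not.

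All 3 UPHD25 values of hdac1 stood above all 3 DMSO values, but the nearest libraries, 207.1 and 207.0 CPM, were nearly equal. The 95% counting intervals of these libraries overlapped, at 200 to 215 CPM for UPHD25 replicate 3 and 202 to 212 CPM for DMSO replicate 1. The two-sided exact permutation test of the CPM values gave p = 0.1, which is the smallest that 3 libraries against 3 allow. The same ordering, all UPHD25 libraries above all DMSO libraries, was found for 1811 of the genes tested, or 10.4%. It held for hdac1 in 7 of the 13 alternative settings for which it was computed. It was lost in the other 6, DESeq2 size factors and the fit without a filter on low counts among them. Among the 7 was the fit with the replicate number as a block, which uses the same CPM values, so its ordering could not differ. Leaving a library out could undo the ordering only through the scaling, so these counts do not measure how firm it was. Scaled by library totals alone, hdac1 was at 201, 156 and 202 CPM in gent-AKI+DMSO and 208, 213 and 250 CPM in gent-AKI+UPHD25, and its log2 fold change was 0.26 where the median of all genes tested was 0.15. With TMM the median over all genes was 0.03.

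Between libraries of a group hdac1 varied little. The within-group SD of its log2 CPM was 0.10, and 3.30% of the genes tested had one as small or smaller. The median over all genes was 0.36. The mean CPM of hdac1 was at or above that of 95.5% of the genes tested, and counting error is larger in genes with few reads. On its SD hdac1 was not compared with genes of a like level. Its coefficient of variation was 9.43% with DMSO and 3.17% with UPHD25, where counting error alone gives 1.93% and 1.79%. In the DMSO group the low value was replicate 2. The log2 differences of same-numbered libraries were 0.06, 0.35 and 0.03, with the largest again in replicate 2. Each had to be above 0, since all UPHD25 values stood above all DMSO values.

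**Figure D1:**
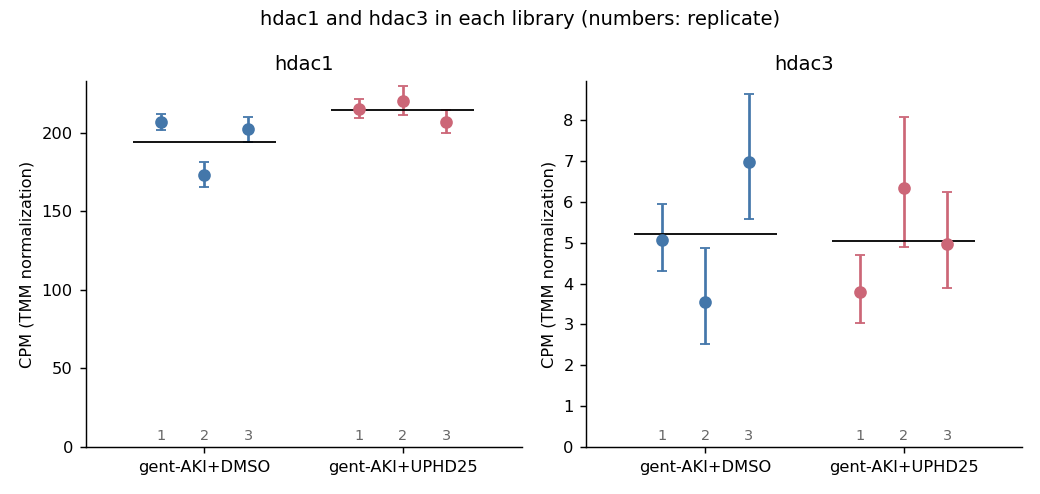
Level of hdac1 (left) and hdac3 (right) in CPM with TMM normalization in each of the 6 libraries, with axes from 0. Points are libraries numbered by replicate, error bars are 95% counting intervals, and black lines are group means (n = 3). The hdac1 libraries lie between 173 and 221 CPM and the hdac3 libraries between 3.56 and 6.99 CPM, where the groups overlap.

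The level of hdac3 overlapped between the groups. Its read counts were 152, 38 and 84 in gent-AKI+DMSO and 86, 66 and 74 in gent-AKI+UPHD25. As CPM these were 5.08, 3.56 and 6.99 in gent-AKI+DMSO and 3.81, 6.35 and 4.97 in gent-AKI+UPHD25. The lowest and the highest library were both from gent-AKI+DMSO, so that the UPHD25 values fell inside the range of the DMSO values. The group means were 5.21 ± 1.72 and 5.04 ± 1.27 CPM (SD, n = 3). The log2 fold change was -0.06 (SE 0.34, 95% interval -0.85 to 0.74), with an adjusted p of 0.973 in edgeR's quasi-likelihood test. The exact permutation test of the CPM values gave p = 0.9.

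The hdac3 data set wider limits than those of hdac1. Its interval ran from 0.554-fold to 1.67-fold. The coefficient of variation was 33.1% with DMSO and 25.2% with UPHD25, against 12.2% and 11.6% from counting alone. The direction of the small difference depended on single libraries: the log2 fold change was 0.20 without DMSO replicate 3 and 0.10 without UPHD25 replicate 1. It was -0.27 without DMSO replicate 2, and -0.26 without UPHD25 replicate 2. The same-numbered libraries differed by -0.42, 0.84 and -0.49 on the log2 scale, so replicate 2 stood on the other side of 0 from the rest.

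A low count does not show a low transcript number in these libraries. Of 75 ribosomal protein genes, which all cells use, 12 were under 10 CPM in every library and 1 of these was at 0, whereas the others had a median of 1201 CPM. The housekeeping gene hprt1 also had 0 reads in every library, whereas tbp, another housekeeping gene, had 179 to 696. How the counting treated reads that map to more than 1 place is not given in the sources used here. Whether reads of hdac3 were lost in counting was not tested. In RefSeq's annotation of another zebrafish assembly, GRCz12tu, hdac1 lies on chromosome 19 between marcksl1b and eif3i and hdac3 on chromosome 14 between rhogd and myot, and 0 annotated genes overlap either of them.

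The balance between the genes was compared within each library, where no scaling enters. There were 40.8, 48.7 and 28.9 hdac1 reads for each hdac3 read in gent-AKI+DMSO and 56.5, 34.8 and 41.7 in gent-AKI+UPHD25. This is a ratio of reads and not of molecules, since transcript lengths were not used. The ranges overlapped. The mean log2 ratio was 5.27 ± 0.38 with DMSO and 5.44 ± 0.35 with UPHD25 (SD, n = 3), a difference of 0.17 with p = 0.6 in a two-sided exact permutation test. Without DMSO replicate 3 the difference was -0.04, and without UPHD25 replicate 1 it was -0.02.

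Across the 6 libraries the log2 CPM values of hdac1 and hdac3 had a Pearson r of 0.50 (exact permutation p = 0.343). Their Spearman rho was 0.20 (exact permutation p = 0.714). No other pair of genes was given a p-value for its correlation. Without the 2 libraries farthest from the median of hdac1, r was -0.97 over the few that remained, and it was not tested. The sign of the relation thus rested on those 2 libraries. The genes whose log2 CPM followed hdac1 most closely over the 6 libraries were asph, an endoplasmic reticulum hydroxylase (r = 0.986), MAPRE2, a microtubule end-binding protein (r = 0.986), and nectin3b, a cell adhesion protein (r = 0.984). Those most like hdac3 were CARS1, the cytosolic cysteinyl-tRNA synthetase (r = 0.987), ENSDARG00000117632, which has no symbol in the table used (r = 0.983), and cyld2 (r = 0.977). These are the highest of 17497 coefficients over 6 libraries and are given as a description. None of the 6 genes passed the test between groups, with log2 fold changes between -0.09 and 0.25 and adjusted p-values from 0.692 to 0.996 in edgeR's quasi-likelihood test.

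The third class I gene, hdac8 (ENSDARG00000003021), whose enzyme in human cells deacetylates the cohesin subunit Smc3 and works outside the corepressor complexes, was at 9.36, 9.73 and 9.82 CPM in gent-AKI+DMSO and 10.0, 6.83 and 10.4 CPM in gent-AKI+UPHD25. Only UPHD25 replicate 2 lay apart, below the rest. The log2 fold change of hdac8 was -0.08 (SE 0.24), with an adjusted p of 0.943 in edgeR's quasi-likelihood test, and without that library it was 0.08. Of the 3 class I genes 0 passed either threshold, where 0% of all genes passed the adjusted one and 12.5% the unadjusted one. The median log2 fold change of the 3 genes was -0.06 against 0.03 for all genes tested. It ranged from -0.10 to 0.17 when 1 library was left out, the highest without DMSO replicate 3.

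Among the other deacetylases, 8 class II and IV genes and 7 sirtuins were tested. Class II enzymes shuttle between nucleus and cytoplasm or are cytoplasmic, and sirtuins depend on NAD rather than zinc. By the adjusted threshold 0 of these 15 genes were higher and 0 lower after UPHD25, and the unadjusted p was under 0.05 for 0 of them, where 12.5% of all genes had one. With the replicate number as a block, which pairs same-numbered libraries, it was under 0.05 for 1 class II gene, hdac7a, and 1 sirtuin, sirt4, as it was for 2722 of all genes. No class II, class IV or sirtuin gene had groups that did not overlap. Of all genes tested, 10.4% had all UPHD25 libraries above all DMSO libraries and 7.46% had them all below. The median log2 fold change was -0.04 for the class II and IV genes and 0.14 for the sirtuins, against 0.03 for all genes tested. Both signs rested on single libraries: the class II and IV median was 0.12 without DMSO replicate 3, and the sirtuin median was -0.07 without UPHD25 replicate 3. The class II genes with the most CPM were hdac9b, at 62.7 ± 16.6 CPM in gent-AKI+DMSO and 53.6 ± 16.5 CPM in gent-AKI+UPHD25 (SD, n = 3), and hdac4, at 43.1 ± 14.9 and 38.2 ± 3.19 CPM, which both encode class IIa enzymes that bind the transcription factor Mef2. For sirt1, a nuclear deacetylase of histones and p53, the means were 101 ± 16.2 and 112 ± 36.3 CPM, and for sirt2, a mainly cytoplasmic tubulin deacetylase, 64.5 ± 9.48 and 58.2 ± 4.89 CPM. Of the zinc-dependent deacetylases together, hdac1, hdac3 and hdac8 included, all 11 tested had a log2 fold change between -0.49 and 0.48. The gene at the lower end was the class IIa gene hdac7a (28.8 ± 6.09 against 20.5 ± 2.93 CPM, unadjusted p = 0.0590 and adjusted p = 0.425 in edgeR), and the gene at the upper end was hdac5, at 0.819 ± 0.311 against 1.15 ± 0.697 CPM. Both were named here after their values were seen. The hdac7b gene had 0 reads in every library.

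**Figure D2:**
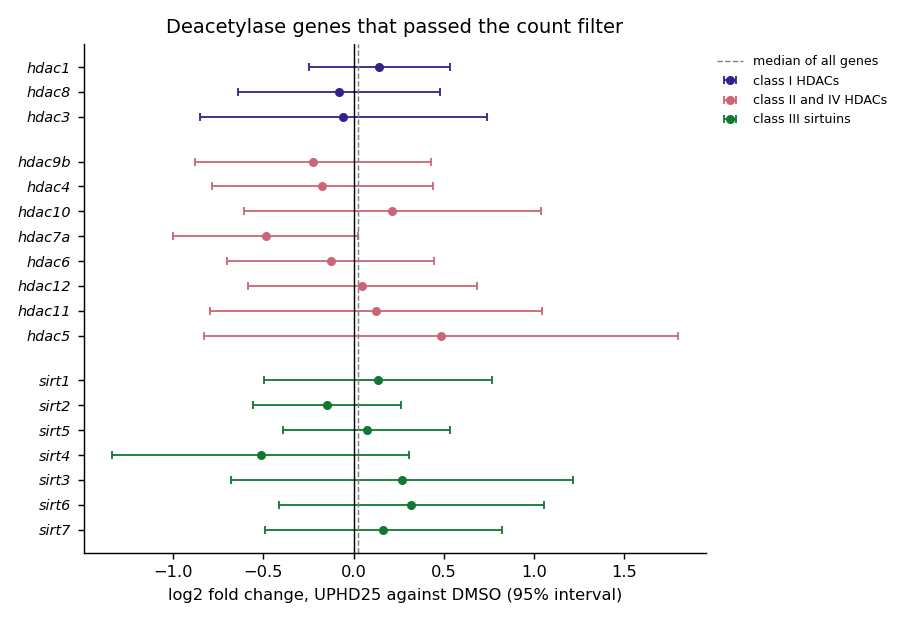
Log2 fold change of gent-AKI+UPHD25 against gent-AKI+DMSO for the 18 deacetylase genes tested, on a linear axis in log2 units. Points are edgeR estimates over 6 libraries, bars are 95% intervals, colors mark the class, and the dashed line is the median of all genes tested (0.03). Every interval crosses 0, and that of hdac1 is narrower than that of hdac3.

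The partners of Hdac1 in the NuRD, SIN3 and MiDAC complexes gave no call by the adjusted threshold, which 0% of all genes tested passed. An unadjusted p under 0.05 was found for 12.5% of all genes tested. NuRD couples deacetylation to an ATP-dependent chromatin remodeler, and 13 of its subunit genes were tested, with 0 higher and 0 lower by the adjusted threshold, 0 with an unadjusted p under 0.05 and a median log2 fold change of 0.14. Without UPHD25 replicate 2 the NuRD median was 0.01, with 7 of 13 genes above 0, and without DMSO replicate 3 it was 0.03. Its subunit mta2 was at 115 ± 10.3 CPM in gent-AKI+DMSO and 142 ± 51.6 CPM in gent-AKI+UPHD25, and the remodeler gene chd4a at 93.7 ± 2.68 and 123 ± 27.5 CPM (SD, n = 3). SIN3 is a scaffold that sequence-specific repressors bind, and of its 14 genes tested 0 passed either threshold, with a median of 0.14 that was 0.01 without DMSO replicate 3 and 0.24 without DMSO replicate 1. The SIN3 genes arid4a and the sin3a copy ENSDARG00000059812 were at 107 ± 13.3 and 134 ± 55.8 CPM and at 70.6 ± 13.8 and 73.8 ± 3.19 CPM. Only ing2 of the SIN3 list, which encodes a reader of methylated histone H3, had groups that did not overlap. That is 1 of 14 genes, or 7.14%, against 10.4% of all genes with all UPHD25 libraries above all DMSO libraries. The ing2 values were 11.4, 6.46 and 8.99 CPM in gent-AKI+DMSO and 11.6, 12.7 and 13.8 CPM in gent-AKI+UPHD25. The log2 fold change of ing2 was 0.50 (SE 0.26) and its adjusted p in edgeR was 0.507. Without DMSO replicate 2 it was 0.31 and without DMSO replicate 1 it was 0.69. In the MiDAC complex the scaffold gene mideasb was at 361 ± 15.6 and 432 ± 197 CPM and dnttip1 at 12.7 ± 2.15 and 13.2 ± 0.346 CPM. For mta2, arid4a and mideasb the highest library was UPHD25 replicate 2 (201, 198 and 646 CPM), and the SDs of that group were large.

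The CoREST complex pairs Hdac1 with the histone demethylase Kdm1a (Lsd1) and was first known for silencing neuronal genes outside neurons. All 8 of its subunit genes tested had a log2 fold change above 0, with a median of 0.45 against 52.7% of all genes above 0 and a median of 0.03, and 0 of 8 passed the adjusted threshold of edgeR's test. The unadjusted p was under 0.05 for 2 of 8, both higher after UPHD25, where 9.09% of all genes were higher by that threshold. With 1 library left out at a time, 7 or 8 of the 8 were above 0 and the median lay between 0.29, without UPHD25 replicate 3, and 0.62, without DMSO replicate 1. One was rcor2, which encodes a CoREST scaffold. It was at 10.2, 9.54 and 11.3 CPM in gent-AKI+DMSO and 18.7, 20.8 and 24.8 CPM in gent-AKI+UPHD25. The groups of rcor2 were well apart, with means of 10.4 ± 0.900 and 21.4 ± 3.09 CPM (SD, n = 3). The log2 fold change was 1.05 (SE 0.20, 95% interval 0.58 to 1.52), and the adjusted p was 0.207 in edgeR and 0.00478 in DESeq2, with a range of 0.00478 to 0.580 over the 14 alternatives in edgeR and DESeq2.

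The other was the phf21a copy ENSDARG00000006878. In mammals PHF21A, also called BHC80, binds histone H3 that is not methylated at lysine 4. This copy was at 21.5, 20.2 and 18.6 CPM in gent-AKI+DMSO and 37.0, 29.2 and 48.1 CPM in gent-AKI+UPHD25, again without overlap. Its log2 fold change was 0.93 (SE 0.22, 95% interval 0.42 to 1.43), with an adjusted p of 0.207 in edgeR and 0.0338 in DESeq2, with a range of 0.0338 to 0.580 over the alternatives. So rcor2 and this phf21a copy passed the threshold with DESeq2 and did not with edgeR. DESeq2 called 636 of the 18578 genes to which it gave an adjusted p, 517 of them higher after UPHD25. The main edgeR fit called 0 of 17497. The second copy of phf21a, ENSDARG00000021378, overlapped between groups, at 12.4 ± 4.01 and 17.9 ± 3.61 CPM. The catalytic partner kdm1a was at 146 ± 24.0 CPM in gent-AKI+DMSO and 157 ± 14.7 CPM in gent-AKI+UPHD25, with a log2 fold change of 0.10 (SE 0.19), and rcor1 was at 62.3 ± 12.3 and 69.0 ± 12.8 CPM. The part of the change in tissue markers in these values was not tested. With the muscle, liver and pancreas markers left out before scaling, the log2 fold change of rcor2 was 1.05 and that of the phf21a copy was 0.92. That setting changes the scaling only. It leaves in place any reads of these genes from other tissues, so it cannot test their part.

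The NCoR complex, in which Hdac3 is activated by its corepressor scaffold, had 5 subunit genes tested and described here. Of these 0 passed the adjusted threshold, 0 were higher and 1 lower by the unadjusted one, which 3.41% of all genes were, and the median log2 fold change was 0.09. It was -0.01 without UPHD25 replicate 2 or replicate 3 and 0.17 without UPHD25 replicate 1. The lower one was tbl1xr1a (ENSDARG00000058696), which encodes a WD-repeat subunit that takes part in exchanging corepressors for coactivators. It was at 117, 133 and 112 CPM in gent-AKI+DMSO and 83.8, 89.0 and 76.2 CPM in gent-AKI+UPHD25, so the groups did not overlap. For tbl1xr1a the log2 fold change was -0.54 (SE 0.17, 95% interval -0.92 to -0.16), with an adjusted p of 0.243 in edgeR. The unadjusted p of tbl1xr1a was no longer under 0.05 without DMSO replicate 2. All UPHD25 libraries below all DMSO libraries was found for 1306 genes, or 7.46% of those tested. Its paralog tbl1xr1b overlapped between groups, at 35.8 ± 0.612 CPM with DMSO and 37.5 ± 5.49 CPM with UPHD25 (SD, n = 3), with an adjusted p of 0.936 in edgeR.

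Over all complexes 42 subunit genes were tested. Of these 36, or 85.7%, had a log2 fold change above 0, against 52.7% of all genes tested, and 0 passed the adjusted threshold in edgeR. Their median was 0.15. Without UPHD25 replicate 2, 27 of the 42, or 64.3%, were above 0 and the median was 0.10, and without UPHD25 replicate 1 the median was 0.23. A high share above 0 was not particular to these genes. Of 20 cell cycle genes tested 18, or 90%, were above 0, also with a median of 0.15, and 11 were without DMSO replicate 2. Of 7 sirtuins 5, or 71.4%, were above 0, but only 3 were without UPHD25 replicate 3. Of 14 retinoic acid receptor and target genes 2, or 14.3%, were above 0. In 3 of the 42, or 7.14%, the UPHD25 libraries were all above the DMSO libraries, against 10.4% of all genes. In 1 of the 42 they were all below, against 7.46% of all genes.

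**Figure D3:**
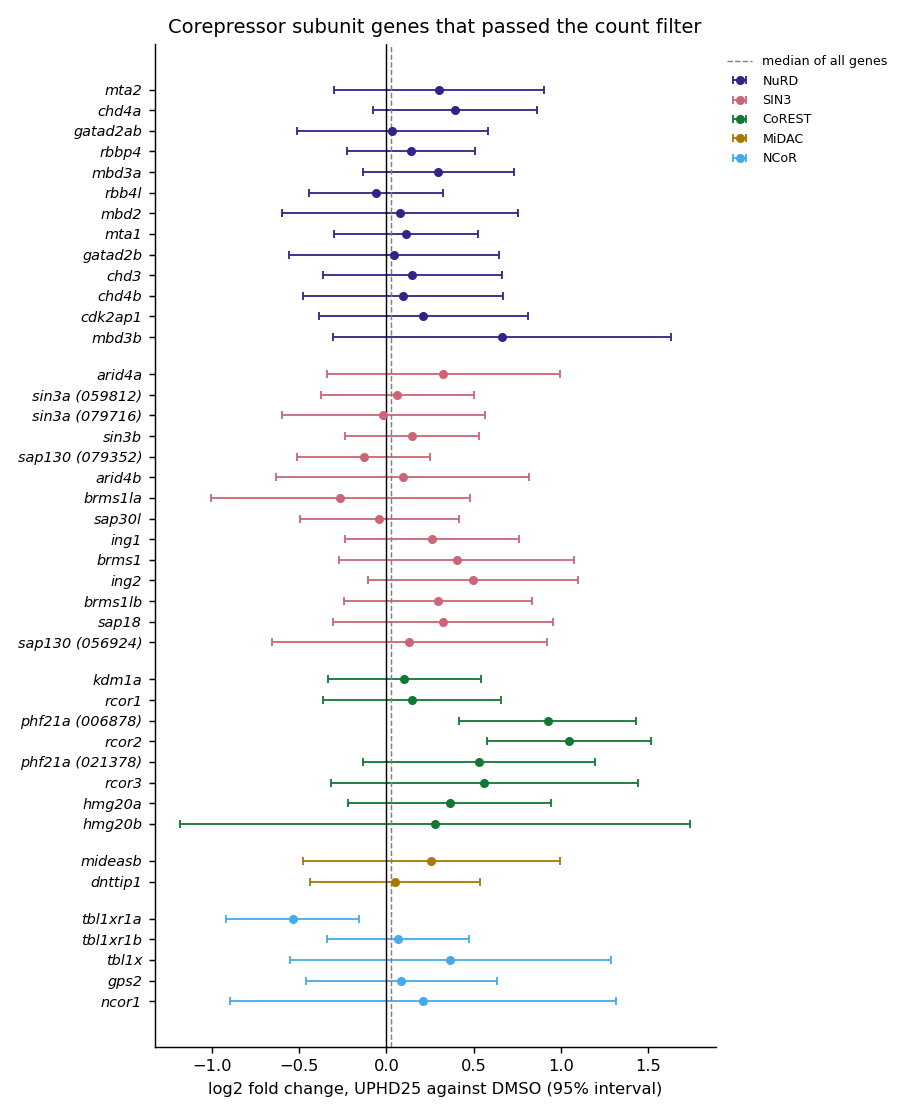
Log2 fold change of gent-AKI+UPHD25 against gent-AKI+DMSO for the 42 corepressor subunit genes tested, on a linear axis in log2 units, ordered within each complex by mean CPM. Points are edgeR estimates over 6 libraries, bars are 95% intervals, copies of a gene carry the last digits of their identifier, and the dashed line is the median of all genes tested (0.03). The intervals of rcor2 and of 1 phf21a copy lie above 0 and that of tbl1xr1a lies below 0.

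The counterparts of the deacetylases, 13 histone acetyltransferase genes, gave 0 calls higher and 0 lower. An unadjusted p under 0.05 was found for 0 of them, against 12.5% of all genes tested. Their median log2 fold change was 0.10, which was -0.12 without UPHD25 replicate 2 and 0.21 without UPHD25 replicate 1. The gene ep300, a coactivator that acetylates histone H3, was at 160 ± 26.0 CPM in gent-AKI+DMSO and 167 ± 43.8 CPM in gent-AKI+UPHD25 for the copy ENSDARG00000061108, and kat6a at 116 ± 2.01 and 128 ± 41.2 CPM (SD, n = 3). Among 14 retinoic acid receptor and target genes tested, 0 passed the adjusted threshold. By the unadjusted one 3 (21.4%) were lower, against 3.41% of all genes, and without DMSO replicate 1 only 1 passed it. The median of the list was -0.17. With 1 library left out it lay between -0.36, without UPHD25 replicate 1, and -0.15, without UPHD25 replicate 3. In 4 of the 14 all UPHD25 libraries were below all DMSO libraries, against 7.46% of all genes. The largest log2 fold changes of this list were those of the retinoid X receptor copy rxra ENSDARG00000035127, at -0.94 (adjusted p = 0.230 in edgeR), and of cyp26c1, at -0.81 (adjusted p = 0.251), both named after their values were seen. The receptor gene rarg (ENSDARG00000034117) was at 125 ± 4.44 and 93.8 ± 5.96 CPM, with a log2 fold change of -0.41 and an adjusted p of 0.322 in edgeR, and cyp26b1, whose enzyme degrades retinoic acid, was at 149 ± 37.2 and 101 ± 39.0 CPM. Of 20 cell cycle genes 0 passed either threshold, where 12.5% of all genes passed the unadjusted one. Their median of 0.15 was 0.02 without DMSO replicate 2, 0.06 without UPHD25 replicate 2 and 0.25 without UPHD25 replicate 3. The gene pcna, which encodes the sliding clamp of replication, was at 177 ± 31.03 and 204 ± 36.6 CPM. The cdkn1b copy ENSDARG00000054271, which encodes an inhibitor of cyclin-dependent kinases, was at 161 ± 22.7 and 172 ± 53.7 CPM.

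No processing setting made a call of hdac1 or hdac3, and the sign of hdac3 changed in some. Over 14 alternative settings the log2 fold change of hdac1 ranged from 0.06 to 0.26 with adjusted p-values from 0.691 to 0.994, and that of hdac3 from -0.27 to 0.20 with adjusted p-values from 0.831 to 0.985, by edgeR or DESeq2. Neither gene passed the threshold in any of these settings. With edgeR almost no gene of the whole table did: 1 passed without UPHD25 replicate 2 and 0 in each other edgeR setting. The missing edgeR calls are therefore not particular to hdac1 and hdac3. DESeq2 called 636 of 18578 genes. With the muscle, liver and pancreas markers left out before scaling, the values were 0.14 for hdac1 and -0.06 for hdac3, as with all genes. That setting changes the scaling only and leaves in place any hdac1 or hdac3 reads from other tissues. The part of the leukocyte and other tissue markers in the levels of hdac1 and hdac3 was not tested. A p that misses the threshold does not show that the levels were equal, and the intervals above bound how far they may have differed.

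**Figure D4:**
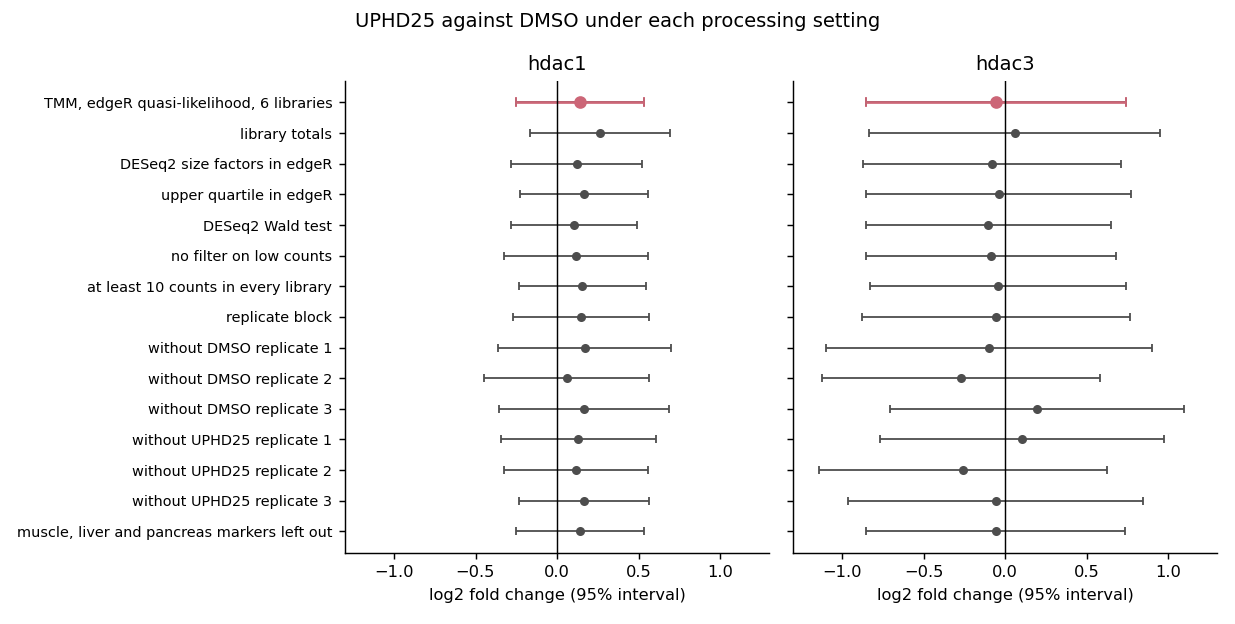
Log2 fold change of gent-AKI+UPHD25 against gent-AKI+DMSO for hdac1 (left) and hdac3 (right) under each processing setting, on a linear axis in log2 units. Points are estimates, bars are 95% intervals, and the upper, red point is the edgeR quasi-likelihood fit with TMM over 6 libraries. Every interval crosses 0, the hdac1 points lie between 0.06 and 0.26, and the hdac3 points lie on both sides of 0.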

How the data were processed

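The authors aligned paired-end reads of stranded mRNA libraries with HISAT2 2.1.0 to danRer11 and deposited raw featureCounts counts per gene (featureCounts version, annotation release, strand option and handling of multi-mapping reads are not given in the sources used here). Genes were compared with edgeR 4.0.16 under R 4.3.3: TMM, filterByExpr (minimum count 10, minimum total 15) and the quasi-likelihood test with group as the only term. The common biological coefficient of variation was 0.314. Log2 CPM used a prior count of 2. Poisson intervals at 95% cover counting error only. DESeq2 1.42.0 was an alternative. Scripts were tested on simulated data.

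Symbols came from a table that named 29201 of 32520 identifiers, and 190 of 212 list symbols were matched. A gene of the corepressor lists is not reported here. The members and lists were chosen with earlier results of these data known. Genes named were the 2 members, hdac8, list genes past the threshold or with groups that do not overlap, the 2 to 4 list genes of highest CPM, and the 3 genes most correlated with each member. Of the non-overlapping genes only those of the deacetylase and corepressor lists were named by that rule.

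Replicate numbers come from the labels. Same-numbered libraries deviated together from their group means (r = 0.49, 0.29 and 0.21 over 17497 genes), so the numbers were used as a block in an alternative fit. The main fit and the permutation tests did not use them. The same r was not computed for libraries with different numbers, so whether it is particular to same-numbered ones was not tested. Both replicate 1 libraries were the deepest of their group (30750026 and 23328700 counted reads), and the part of depth in these r values was not tested.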

Additional observations from a re-analysis of the deposited data

How the results depend on the processing

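The log2 fold change of hdac1 kept its direction and its side of the threshold in all 14 alternatives. That of hdac3 changed sign in 3, to 0.0573 with library totals, 0.196 without DMSO replicate 3 and 0.104 without UPHD25 replicate 1. With 1 library left out at a time hdac1 ranged from 0.06 to 0.17 and hdac3 from -0.27 to 0.20. The difference in the log2 count ratio of hdac1 to hdac3 ranged from -0.0367 to 0.34, and was -0.0367 without DMSO replicate 3 and -0.0191 without UPHD25 replicate 1. For hdac8 the value was 0.0622 with library totals and 0.0770 without UPHD25 replicate 2, and it ranged from -0.18 to 0.0770 with 1 library left out. Over all genes the count past the threshold was 636 with DESeq2 (517 higher and 119 lower) against 0 with edgeR, which had 2186 genes at an unadjusted p under 0.05, and it ranged from 0 to 1 with 1 library left out. DESeq2 moved rcor2 (1.00) and the phf21a copy (0.88) past the threshold. With the replicate block, which pairs same-numbered libraries, the log2 fold change was 0.15 for hdac1 and -0.06 for hdac3, 0 genes passed the adjusted threshold, and no adjusted call changed. Leaving out muscle, liver and pancreas markers, an alternative chosen after seeing the data that changes the scaling only, gave 0.14 for hdac1 and -0.06 for hdac3. The hdac3 values rest on 38 to 152 reads per library. The cause of the changes between settings was not tested.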
